A study of Mus musculus with 12 samples.

Results

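Elane, Prtn3, Mpo, Ctsg, Ms4a3 and Prss57 are 6 genes of the primary (azurophil) granule programme of myeloid progenitors. They were followed here across stem and progenitor cells of mouse bone marrow. They were chosen by name, through the RefSeq accession that each array probe carries, and are 6 of the 13708 genes tested. Elane, Prtn3, Ctsg and Prss57 encode serine proteases, Mpo encodes a peroxidase and Ms4a3 a membrane protein, so 4 of the 6 are protease genes in the strict sense. Each was read by 1 probe, and each probe lay well above background on 12 of 12 arrays.

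RNA came from 2 cell populations sorted from the marrow of C57BL/6 recipient mice that had been repopulated with fetal liver cells: granulocyte-macrophage progenitors (GMPs), and LSK cells, a lineage-negative fraction positive for Sca-1 and c-Kit that holds stem and multipotent progenitor cells. Each population was measured in 6 conditions: Tet2KD/KDEzh2-/- with refractory anaemia with excess of blasts (RAEB), Tet2KD/KDEzh2-/- with a myelodysplastic/myeloproliferative disease (MDS/MPN), Tet2KD/KDEzh2-/- without disease (double mutant), Tet2KD/KD (a knockdown, hypomorphic allele), Ezh2-/- and wild type. Both diseased conditions are double mutant. Every combination of population and condition was measured once, on 12 arrays in all. The number of mice behind an RNA, their age and the way Ezh2 was deleted are not given in the sources used here. No value of a single group therefore has a replicate error, and every p-value measures how far differences varied between conditions and cell types, not between mice.

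Primary granules are made early, in promyelocytes, before the later granules that hold lactoferrin and gelatinase. Neutrophil elastase (Elane), proteinase 3 (Prtn3) and cathepsin G (Ctsg) are made as inactive precursors, trimmed by the dipeptidyl peptidase cathepsin C (Ctsc) and stored active on the proteoglycan serglycin (Srgn). Myeloperoxidase (Mpo) is a haem enzyme that turns chloride and hydrogen peroxide into hypochlorous acid. Prss57, also called neutrophil serine protease 4, cuts after arginine. Ms4a3 is a four-times membrane-spanning protein whose expression marks granulocyte-monocyte progenitors. Transcription factors of the ETS (PU.1, encoded by Spi1), MYB and C/EBP families are known to bind at Elane, Prtn3 and Mpo.

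Elane, Prtn3 and Prss57 lie on chromosome 10, Mpo on chromosome 11, Ctsg on chromosome 14 and Ms4a3 on chromosome 19. Of the 6 members, 5 were matched in the RefSeq table of start regions, and these are shown because the genes move together below. Prss57 was not searched for motifs. Each window runs from 250 bases before to 50 bases after the RefSeq gene start (assembly GRCm38.p6), 5′ to 3′ on the gene's own strand. Capitals mark GGAAGT, the core of an ETS site, or its reverse complement ACTTCC. The windows are chr10:79886062-79886361 on the plus strand for Elane, chr10:79879417-79879716 on the plus strand for Prtn3, chr11:87793534-87793833 on the plus strand for Mpo, chr14:56102525-56102824 on the minus strand for Ctsg and chr19:11640802-11641101 on the minus strand for Ms4a3.
Elane: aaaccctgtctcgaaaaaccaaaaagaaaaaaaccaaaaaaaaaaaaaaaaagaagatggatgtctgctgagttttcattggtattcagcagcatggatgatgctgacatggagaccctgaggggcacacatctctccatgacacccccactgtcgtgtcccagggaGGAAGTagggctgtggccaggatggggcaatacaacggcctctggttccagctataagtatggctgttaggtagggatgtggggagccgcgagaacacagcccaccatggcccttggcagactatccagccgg
Prtn3: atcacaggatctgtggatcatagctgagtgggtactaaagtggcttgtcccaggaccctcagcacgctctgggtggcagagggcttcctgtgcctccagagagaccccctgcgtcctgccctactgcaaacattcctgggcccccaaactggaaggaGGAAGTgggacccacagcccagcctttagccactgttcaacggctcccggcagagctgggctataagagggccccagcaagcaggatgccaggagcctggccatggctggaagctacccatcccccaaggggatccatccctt
Mpo: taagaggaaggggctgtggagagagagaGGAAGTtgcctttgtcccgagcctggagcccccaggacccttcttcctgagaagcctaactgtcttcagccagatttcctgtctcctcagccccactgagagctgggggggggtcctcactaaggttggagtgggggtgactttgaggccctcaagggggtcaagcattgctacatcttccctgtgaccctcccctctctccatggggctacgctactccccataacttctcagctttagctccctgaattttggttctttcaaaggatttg
Ctsg: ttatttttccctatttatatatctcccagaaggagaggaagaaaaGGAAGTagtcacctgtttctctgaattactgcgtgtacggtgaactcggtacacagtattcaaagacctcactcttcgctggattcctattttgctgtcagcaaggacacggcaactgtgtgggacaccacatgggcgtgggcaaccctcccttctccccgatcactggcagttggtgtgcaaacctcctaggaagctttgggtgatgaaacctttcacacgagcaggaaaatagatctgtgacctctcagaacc
Ms4a3: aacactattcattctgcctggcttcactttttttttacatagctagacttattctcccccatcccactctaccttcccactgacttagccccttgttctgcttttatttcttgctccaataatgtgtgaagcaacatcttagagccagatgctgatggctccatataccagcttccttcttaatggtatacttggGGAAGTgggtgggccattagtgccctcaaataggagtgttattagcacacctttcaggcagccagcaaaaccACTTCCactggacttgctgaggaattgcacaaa
GGAAGT was found in 5 of 5 windows on either strand, against 23.8% of the 32851 windows of the same length. It began 83 bases before the start in Elane, 93 in Prtn3, 222 in Mpo and 205 in Ctsg. Ms4a3 held it 55 bases before the start, and on the opposite strand 17 bases after it. The longer form GAGGAAGT, which contains the shorter one, was in 3 of 5 windows (Elane, Prtn3 and Mpo), against 3.2% of all windows. The MYB core AACNG was in 4 of 5 windows against 80.3% of all, and the C/EBP-type sequence GCAAT in 3 of 5 against 26.4%. These motifs were picked after the sequences were seen, and a match describes letters, not binding.

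All levels below are log2 signals minus the array's own 75th percentile, so 0 is that percentile and 1 unit is a doubling. The percentile lay between 168.5 and 389.4 signal units, 45.6 to 52.3% of gene spots per array were well above background, and the members' highest signal, 469761, was below every array's saturation value. Tet2 signal, the check of the knockdown, was lower in each Tet2KD/KD array than in its partner with Tet2: -1.61 in Tet2 knockdown against 0.44 in wild-type LSK, and -0.64 against 1.57 in GMP. The Ezh2 probe ran between 2.50 and 3.40 everywhere and does not check the deletion. Of 9 LSK markers tested, 9 were lower in GMP, and of 8 GMP markers 6 were higher and 2 (Kit and Cd34, which LSK cells share) lower. Taken over 6 arrays each, the labelled cell types matched these markers, but single diseased GMP arrays departed for some LSK markers. Ly6a was at 4.64 in MDS/MPN GMP, above 4.05 in MDS/MPN LSK. Flt3 was at 4.58 in RAEB GMP, against -0.25 to 1.59 in GMP without disease. The 8 arrays without disease were on 1 slide, and the diseased LSK and diseased GMP arrays on a slide of their own each, so slide and disease cannot be told apart. On the shared slide LSK arrays filled 1 row and GMP arrays the other, so row and cell type cannot be told apart there. Xist, a female-specific transcript, was well above background on both diseased LSK arrays and on neither diseased GMP array, where Eif2s3y from the Y chromosome was at 0.82 in RAEB and 1.51 in MDS/MPN. The diseased LSK and GMP arrays therefore do not carry the RNA of 1 sex, and of the arrays without disease wild type and double mutant had Xist and the single mutants did not.

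All 6 genes rose in GMP relative to LSK cells, by 5.88-fold to 63.6-fold over the 6 conditions, and for every member the lowest GMP array was above the highest LSK array. Elane and Ms4a3 had the largest differences, Ctsg and Prtn3 came next, and Prss57 and Mpo had the smallest. By limma with condition as a block, 25.7% of all genes tested were called higher in GMP and 14.6% had GMP arrays wholly above LSK arrays. The median difference was 4.08 for the members and 0.16 for all genes.

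The elastase gene Elane stood between 8.55 and 9.40 on the 6 GMP arrays (median 8.97) and between 1.69 and 5.51 on the 6 LSK arrays (median 2.47). The GMP arrays were nearly level, whereas the LSK arrays spread widely, with the MDS/MPN and RAEB arrays at the top. The difference was 5.94 (SE 0.39, limma adjusted p = 2.84e-05), a 61.2-fold difference and the 7th largest rise of all genes tested.

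The neighbouring protease gene Prtn3 stood between 7.86 and 9.01 in GMP (median 8.47) and between 3.52 and 6.02 in LSK cells (median 3.95). Here too the diseased LSK arrays were the highest of the LSK arrays, and the 4 others lay within a narrow band. The difference was 4.05 (SE 0.22, limma adjusted p = 1.28e-05), or 16.5-fold.

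Ctsg, the cathepsin G gene, stood between 10.38 and 11.19 in GMP (median 10.70) and between 5.22 and 8.64 in LSK cells (median 6.22). Wild-type LSK was the highest LSK array without disease for this gene, at 6.45, and Tet2 knockdown and Ezh2-/- LSK were the lowest, at 5.26 and 5.22. The difference was 4.12 (SE 0.39, limma adjusted p = 0.000142), or 17.4-fold.

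Prss57, the gene of the fourth protease, stood between 3.33 and 4.42 in GMP (median 3.67) and between 0.44 and 1.62 in LSK cells (median 1.08). It was the member with the narrowest range in LSK cells. The difference was 2.76 (SE 0.18, limma adjusted p = 2.79e-05), or 6.76-fold.

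Mpo stood between 10.86 and 11.27 in GMP (median 11.02) and between 7.83 and 9.59 in LSK cells (median 8.20). Its GMP levels differed least of all members between conditions, and in LSK cells the diseased arrays and then the double mutant were highest. The difference was 2.56 (SE 0.22, limma adjusted p = 9.96e-05), or 5.88-fold.

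Ms4a3 stood between 7.69 and 8.88 in GMP (median 8.33) and between 0.39 and 5.22 in LSK cells (median 1.63). Its LSK range was the widest of the 6 members, from Ezh2-/- at the bottom to MDS/MPN at the top. The difference was 5.99 (SE 0.48, limma adjusted p = 6.58e-05), or 63.6-fold, the 5th largest rise of all genes tested.

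**Figure D1:**
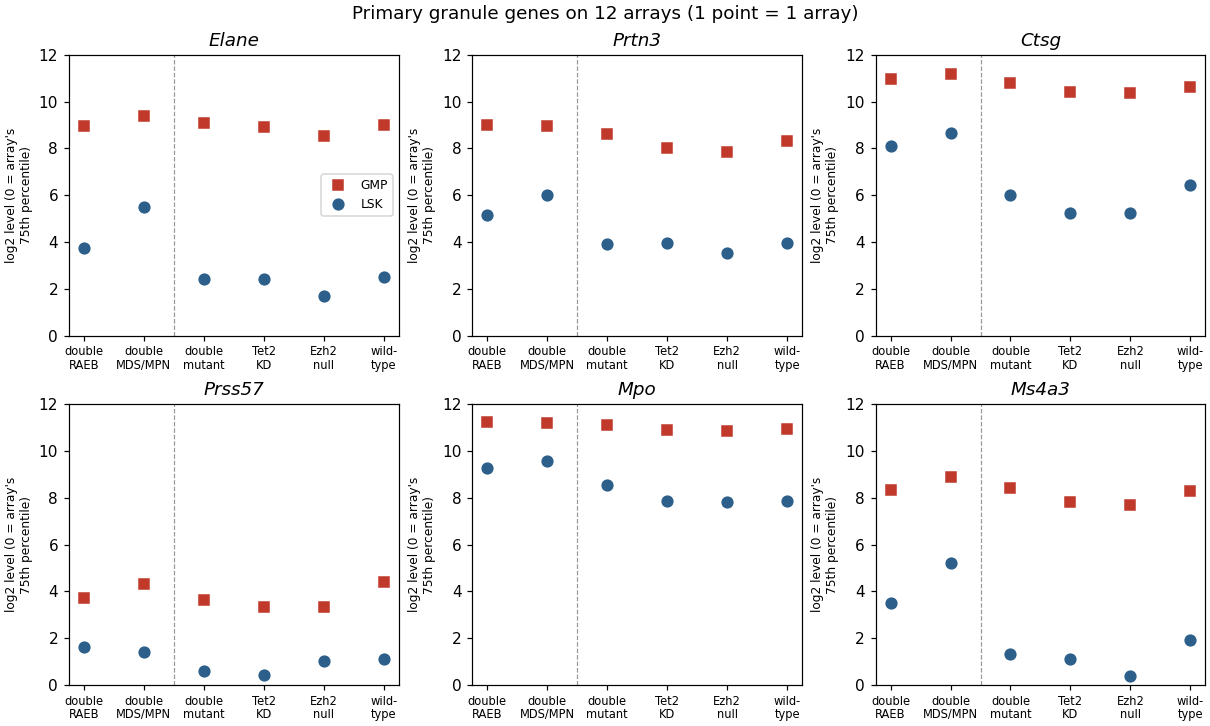
Log2 level of each member (signal minus the array's 75th percentile) on each of the 12 arrays, with conditions along the horizontal axis and a point for each GMP and LSK array. GMP points lie above LSK points in every condition, and the LSK points of the diseased conditions lie above the other LSK points for all 6 genes.

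Condition by condition, each value below is a difference between 2 arrays and has no test. All 6 members were at least 2-fold higher in GMP in each condition, where between 9.37% (Ezh2-/-) and 16.4% (MDS/MPN) of all genes were. The shares for the rest were 12.8% in RAEB, 13.9% in the double mutant, 10.4% in Tet2 knockdown and 12.0% in wild type. For Elane the GMP minus LSK difference was 5.22 in RAEB and 3.89 in MDS/MPN, against 6.67 in the double mutant, 6.48 in Tet2 knockdown, 6.86 in Ezh2-/- and 6.48 in wild type. For Ms4a3 it was 4.83 in RAEB and 3.66 in MDS/MPN, against 7.08, 6.70, 7.30 and 6.38 in the same 4 conditions. In 5 of the 6 genes both diseased conditions had a smaller gap than any condition without disease. Prss57 was the exception, with 2.11 in RAEB and 2.92 in MDS/MPN inside or near its range of 2.30 to 3.29 elsewhere.

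**Figure D2:**
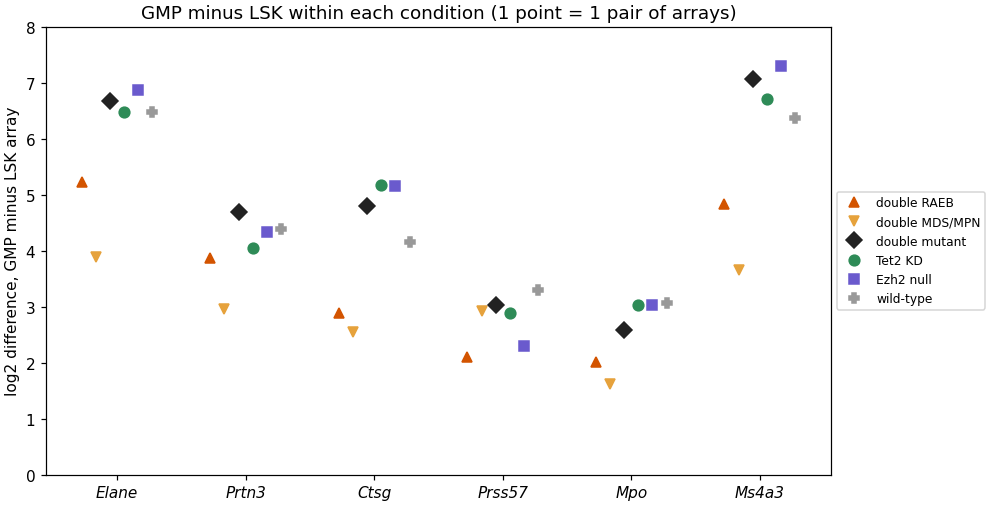
GMP minus LSK difference (log2) for each member in each condition, 1 pair of arrays per point. The MDS/MPN points are the lowest for Elane, Prtn3, Mpo, Ctsg and Ms4a3, at 3.89, 2.96, 1.62, 2.54 and 3.66, and RAEB is next.

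In diseased LSK cells 5 of 6 members rose relative to LSK cells without disease: Ms4a3 by 9.08-fold, Ctsg by 6.22-fold, Elane by 5.15-fold, Prtn3 by 3.35-fold and Mpo by 2.64-fold. Prss57 was 1.65-fold higher and did not pass the test. By limma on 2 diseased against 4 other LSK arrays, with the spread pooled over all 12 arrays, 4.65% of all genes tested were called higher. The median difference was 2.06 for the members and 0.09 for all genes. All 6 members had both diseased arrays above the 4 others, as did 27.0% of all genes.

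Ms4a3 was at 3.52 in RAEB and 5.22 in MDS/MPN LSK, against 1.33 in the double mutant, 1.11 in Tet2 knockdown, 0.39 in Ezh2-/- and 1.92 in wild-type LSK. Both diseased arrays were above every other LSK array, MDS/MPN by the larger margin. The difference was 3.18 (SE 0.49, limma adjusted p = 0.00577).

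Ctsg was at 8.09 in RAEB and 8.64 in MDS/MPN LSK, against 5.99 in the double mutant, 5.26 in Tet2 knockdown, 5.22 in Ezh2-/- and 6.45 in wild-type LSK. The diseased arrays were closer to each other than for Elane or Ms4a3. The difference was 2.64 (SE 0.32, limma adjusted p = 0.00252).

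Elane was at 3.74 in RAEB and 5.51 in MDS/MPN LSK, against 2.41 in the double mutant, 2.43 in Tet2 knockdown, 1.69 in Ezh2-/- and 2.50 in wild-type LSK. Of the arrays without disease, 3 were almost level and Ezh2-/- lay below them. The difference was 2.36 (SE 0.41, limma adjusted p = 0.00946).

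Prtn3 was at 5.15 in RAEB and 6.02 in MDS/MPN LSK, against 3.93 in the double mutant, 3.96 in Tet2 knockdown, 3.52 in Ezh2-/- and 3.94 in wild-type LSK. As for its neighbour Elane, MDS/MPN was the highest array, RAEB the next and Ezh2-/- the lowest, and the step was smaller. The difference was 1.75 (SE 0.27, limma adjusted p = 0.00577).

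Mpo was at 9.26 in RAEB and 9.59 in MDS/MPN LSK, against 8.54 in the double mutant, 7.87 in Tet2 knockdown, 7.83 in Ezh2-/- and 7.86 in wild-type LSK. The double mutant without disease lay between the diseased arrays and the other 3. The difference was 1.40 (SE 0.21, limma adjusted p = 0.00513).

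Prss57 was at 1.62 in RAEB and 1.42 in MDS/MPN LSK, against 0.58 in the double mutant, 0.44 in Tet2 knockdown, 1.03 in Ezh2-/- and 1.13 in wild-type LSK. It was the only member higher in RAEB than in MDS/MPN LSK, and the diseased arrays were only just above wild type. The difference was 0.72 (SE 0.32, limma adjusted p = 0.173).

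The MDS/MPN array carried part of these calls. Without it, Ctsg alone passed in LSK, with a difference of 2.36 (limma adjusted p = 0.037). Elane then had 1.48 (adjusted p = 0.0696), Prtn3 1.31 (adjusted p = 0.0648), Mpo 1.23 (adjusted p = 0.0632) and Ms4a3 2.33 (adjusted p = 0.0574). Set only against the LSK arrays that, like the diseased ones, had Xist (wild type and double mutant), the differences were 2.17 for Elane, 1.65 for Prtn3, 1.23 for Mpo, 2.15 for Ctsg, 2.74 for Ms4a3 and 0.66 for Prss57. In that smaller fit Ctsg alone passed (limma adjusted p = 0.046), and the rest had adjusted p between 0.0571 and 0.206.

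In GMP 0 of 6 members passed the same test (limma, 2 diseased against 4 other arrays), where 13.4% of all genes were called higher. At an unadjusted p under 0.05 there was 1 member, Prtn3. Prtn3 was at 9.01 in RAEB and 8.98 in MDS/MPN GMP, against 8.62 in the double mutant, 8.00 in Tet2 knockdown, 7.86 in Ezh2-/- and 8.32 in wild-type GMP. Both diseased arrays were above the 4 others, and the difference was 0.79 (SE 0.27, limma adjusted p = 0.0546).

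Ctsg and Mpo also had both diseased GMP arrays above the 4 others, which made 3 of 6 members, as did 28.8% of all genes. Their differences were 0.53 and 0.29, those of Elane, Ms4a3 and Prss57 were 0.30, 0.56 and 0.36, and the adjusted p of these 5 ran from 0.257 to 0.634. The median was 0.45 for the members and 0.15 for all genes. For Mpo and Ctsg the order of arrays rests on the scaling, as the diseased GMP arrays had the lowest 75th percentiles (168.5 and 188.8). Before scaling, Mpo was at 414923 in RAEB and 448232 in MDS/MPN GMP, against 433161 to 469761 in GMP without disease. Ctsg was then at 342120 in RAEB and 439626 in MDS/MPN GMP, against 377148 in wild-type GMP. A small rise in GMP cannot be separated from none with these arrays in this pooled fit.

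The difference between both disease effects was tested itself. It was negative, a smaller step in GMP than in LSK cells, for Ms4a3 (-2.62, SE 0.69, limma adjusted p = 0.0344), Ctsg (-2.10, SE 0.46, adjusted p = 0.019), Elane (-2.07, SE 0.58, adjusted p = 0.0434) and Mpo (-1.11, SE 0.29, adjusted p = 0.0339). Prtn3 (-0.95, adjusted p = 0.12) and Prss57 (-0.37, adjusted p = 0.632) did not pass. The 4 calls of 6 compare with 5.94% of all genes called in this direction. These calls depended on the arrays used. Of 21 alternatives, Elane and Mpo each lost the call in 11, Ms4a3 in 8 and Ctsg in 3. Without the LSK MDS/MPN array the differences were -1.18 for Elane, -0.52 for Prtn3, -0.94 for Mpo, -1.83 for Ctsg, -1.77 for Ms4a3 and -0.47 for Prss57, and 0 members passed (limma adjusted p 0.0895 to 0.663). There were also 0 without the GMP RAEB array, and 0 when arrays without disease were matched to the diseased ones on Xist, where 5 of the 6 differences were negative (-0.58 to -1.88) and that of Prss57 was 0.03. Since the diseased LSK and GMP arrays also differ in slide and in sex-linked transcripts, these and the cell type cannot be told apart in this comparison. In the Xist-matched fit the reference arrays were wild type and double mutant for LSK cells, but Tet2 knockdown and Ezh2-/- for GMP. The genotype of the reference therefore goes with the cell type there.

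**Figure D3:**
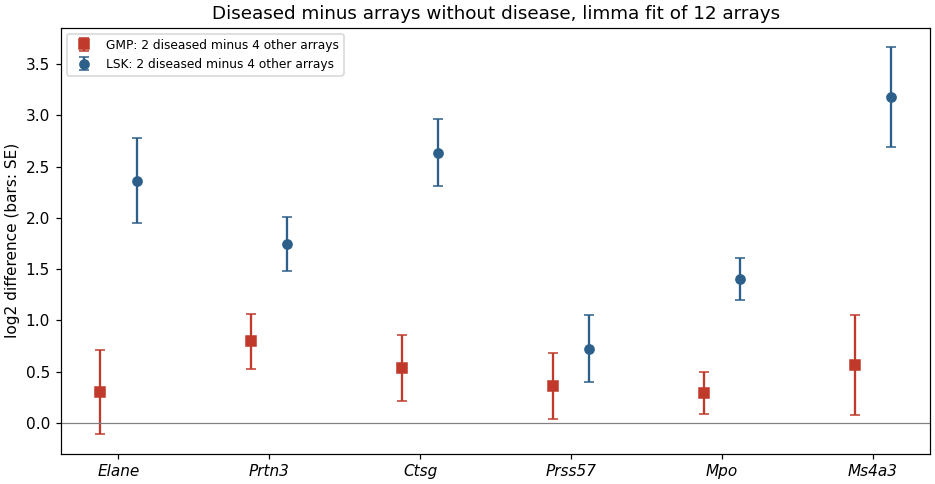
Diseased minus without disease (log2) for each member in GMP and in LSK cells, with bars of 1 SE from limma, 2 against 4 arrays in each. The LSK differences run from 0.72 to 3.18 and the GMP differences from 0.29 to 0.79.

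On a linear scale, diseased LSK cells came only part of the way to GMP levels. As a share of the mean GMP level without disease, Elane was at 2.80% in RAEB and 9.54% in MDS/MPN LSK, against 1.03% on average in LSK cells without disease. For Mpo the shares were 30.8% and 39.0%, against 13.4%. For Ctsg they were 18.1% and 26.4%, against 3.75%, and for Prtn3 11.8% and 21.6%, against 4.79%. For Ms4a3 they were 4.22% and 13.8%, against 0.90%, and for Prss57 22.9% and 19.8%, against 13.2%. The gain was not the same share of the GMP level in every member: in MDS/MPN it ran from 6.67% (Prss57) to 25.6% (Mpo), and in RAEB from 1.78% (Elane) to 17.4% (Mpo). In RNA from a sorted population, more cells with a transcript and more of it per cell cannot be told apart.

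Taken over both cell types, 4 diseased against 8 other arrays, 5 of 6 members rose (limma), where 13.5% of all genes were called higher. The differences were 1.87 for Ms4a3, 1.59 for Ctsg, 1.33 for Elane, 1.27 for Prtn3 and 0.85 for Mpo, with adjusted p from 0.00334 to 0.0121, and 0.54 for Prss57 (adjusted p = 0.114). Matched on Xist, with wild type and double mutant as LSK references and the single mutants as GMP references, 4 of 6 passed (limma). Elane kept its size at 1.31 but had an adjusted p of 0.0682.

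The diseased double mutants were also set against the double mutant without disease, which shares their genotype. The differences over both cell types were 1.63 for Ms4a3, 1.33 for Ctsg, 1.16 for Elane, 1.01 for Prtn3, 0.68 for Prss57 and 0.50 for Mpo. None passed, with 0 of 6 called by limma (adjusted p 0.282 to 0.529), and 2 members, Prtn3 and Prss57, had an unadjusted p under 0.05. The test had little reach for any gene, since 1 of 13708 genes (0.00730%) was called and 1881 had an unadjusted p under 0.05. In LSK cells alone, as differences between single arrays, RAEB exceeded the double mutant by 1.33 for Elane, 1.22 for Prtn3, 0.71 for Mpo, 2.10 for Ctsg, 2.19 for Ms4a3 and 1.04 for Prss57. MDS/MPN exceeded it by 3.10, 2.09, 1.05, 2.65, 3.89 and 0.83 in the same order of genes.

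Between the diseases, RAEB was lower than MDS/MPN in LSK cells by array values for 5 members: -1.77 for Elane, -1.70 for Ms4a3, -0.87 for Prtn3, -0.55 for Ctsg and -0.34 for Mpo. For Prss57 it was 0.21. In GMP the differences were smaller for Elane (-0.44), Ms4a3 (-0.53) and Ctsg (-0.20), close to 0 for Prtn3 (0.03) and Mpo (0.05), and -0.61 for Prss57. Each of these values is a difference between single arrays. Over both cell types (2 against 2 arrays, limma on condition and cell type, a test added after the data were seen) RAEB minus MDS/MPN was -1.10 for Elane (SE 0.68), -1.12 for Ms4a3 (SE 0.83), -0.42 for Prtn3, -0.37 for Ctsg, -0.20 for Prss57 and -0.14 for Mpo. Of the 6 members 0 passed (adjusted p 0.974 to 0.988), with 0 at an unadjusted p under 0.05, where 0% of all genes were called and 364 had an unadjusted p under 0.05.

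Transcripts of other myeloid cells moved on some of the same arrays. The summed level of 7 monocyte and macrophage markers, in units of the 75th percentile, was 24.0 in RAEB and 34.7 in MDS/MPN LSK, against 2.04 to 7.21 in LSK cells without disease. Of 6 tested, 4 rose in diseased LSK cells, among them F13a1 (factor XIII A chain, 3.35, limma adjusted p = 0.00247) and Ly86 (MD-1, 2.68, adjusted p = 0.00246). Adgre1, the F4/80 antigen, was not well above background on any LSK array without disease and was at least 3.40-fold higher in diseased LSK cells (adjusted p = 0.0109). The macrophage gene C1qa was well above background on 2 of 6 LSK arrays and on no GMP array. In GMP the list summed to 141 in RAEB and 203 in MDS/MPN, against 162 to 185 without disease. There 0 of 6 rose and 1 fell (limma). The disease effect in GMP minus that in LSK cells was called lower for 5 of these 6, against 5.94% of all genes. The members' smaller step in GMP was thus shared by these markers.

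Late neutrophil markers followed another order. Their summed level over 10 genes was 15.7 in RAEB and 344 in MDS/MPN LSK, against 10.9 in the double mutant, 20.6 in Tet2 knockdown, 19.4 in Ezh2-/- and 91.9 in wild-type LSK. The sum in RAEB LSK was within the range of LSK cells without disease, while on the same array each of the 6 members was above its own such range. Single genes of the list did not all follow the sum: Mmp8, at -3.17 in RAEB LSK, was above its range in LSK cells without disease, and Camp, at -0.96, and Ngp, at -3.66, were below theirs. Wild-type LSK, which was high in late neutrophil genes, was also the highest LSK array without disease for Elane, Ctsg, Ms4a3 and Prss57. Of 9 late neutrophil genes tested 1 rose in diseased LSK cells, Mmp8 (neutrophil collagenase, 2.90, limma adjusted p = 0.034). Mmp8 was well above background on 3 of 6 LSK arrays, both diseased ones and wild type (-3.37), so its difference rests partly on values near background. Mmp9 was not well above background on any array.

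Eosinophil markers summed to 4.01 in RAEB and 28.1 in MDS/MPN LSK, against 1.18 to 4.11 in LSK cells without disease, and 0 of 5 passed (limma), with 1, Prg2, at an unadjusted p under 0.05. In GMP they summed to 377 in RAEB and 1319 in MDS/MPN, against 20.1 to 62.8 without disease. The RAEB sum lay mostly in Prg2, at 8.51. The median log2 level of the list was 1.99 in RAEB GMP, within its range of 0.87 to 2.10 without disease, and 6.10 in MDS/MPN GMP. In RAEB GMP Epx, at 3.00, was above every GMP array without disease, but Siglecf, at 0.33, was below them all. In diseased GMP 1 of 5 passed (limma), with 2 at an unadjusted p under 0.05. Of the remaining lists, 1 of 6 mast cell and basophil markers rose in diseased LSK cells, Cpa3 (1.56, adjusted p = 0.0259). Of 4 T and NK markers 0 rose and 1 fell, and of 4 erythroid markers 0 passed (limma), with 0 at an unadjusted p under 0.05. The part of these other cell types in the members' rise was not tested.

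**Figure D4:**
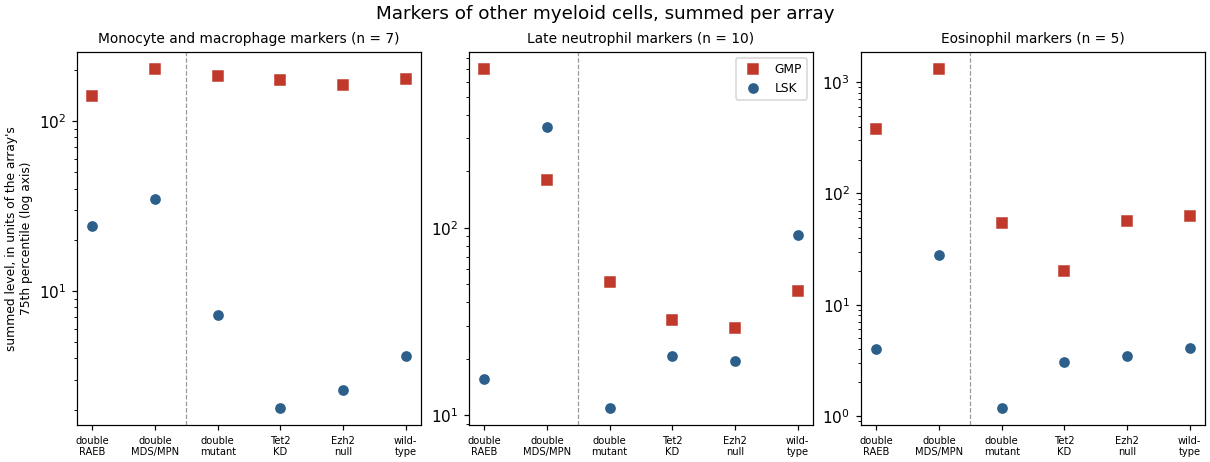
Summed level of monocyte and macrophage, late neutrophil and eosinophil markers on each array, in units of the array's 75th percentile on a log axis, for GMP and LSK arrays by condition. In LSK cells both diseased arrays exceed the others for the monocyte list (24.0 and 34.7 against at most 7.21), but only MDS/MPN does for the other lists.

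Without disease, no member passed the test for either genetic change. Ezh2 loss (4 against 4 arrays, both cell types together) changed 0 of 6 members by limma, with 0 at an unadjusted p under 0.05, where 0.190% of all genes were called and 1204 had an unadjusted p under 0.05. The differences were -0.28 for Elane, -0.07 for Prtn3, 0.20 for Mpo, -0.09 for Ctsg, -0.33 for Ms4a3 and -0.19 for Prss57, with adjusted p from 0.775 to 0.986. Tet2 knockdown changed 0 of 6 members by limma, with 0 at an unadjusted p under 0.05, where 0% of all genes were called and 787 had an unadjusted p under 0.05. The differences were 0.28 for Elane, 0.22 for Prtn3, 0.24 for Mpo, -0.05 for Ctsg, 0.09 for Ms4a3 and -0.48 for Prss57, with adjusted p from 0.818 to 0.979.

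By single arrays, Ezh2-/- was below wild type for all 6 members in both cell types, for example 0.39 against 1.92 for Ms4a3 in LSK cells and 8.55 against 8.98 for Elane in GMP. On the Tet2 knockdown background the sign turned for most: the double mutant was above Tet2 knockdown for 4 of 6 members in LSK cells and 6 of 6 in GMP. These pairs have no replicate, and the array order for Ezh2-/- and Tet2 knockdown against wild type and double mutant is also that of Xist. In GMP, Prss57 was highest in wild type at 4.42, against 3.62 in the double mutant, 3.34 in Tet2 knockdown and 3.33 in Ezh2-/-.

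The members varied together. Pearson's r between pairs of members over the 12 arrays ran from 0.94 to 0.99 in 15 pairs, with GMP and LSK arrays as separate clusters. After each cell type's mean was taken away it ran from 0.49 to 0.98 with a median of 0.91, and the lowest values all involved Prss57. These values describe arrays that share slides and scaling. The 5 other genes whose profile was most like the members' mean were Csf1r (the M-CSF receptor), Trem3, Nrg1, Fcgr3 (an Fc gamma receptor used to sort GMPs) and Nrg2, with r from 0.9948 to 0.9959 over 12 arrays. After the cell type means were taken away they were Hp (haptoglobin), Nrg1, Trem3, Csf1r and Cd300lb, with r from 0.9685 to 0.9923.

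On the chromosome, adjacent genes did not all share the size of the rise. Next to Elane and Prtn3, Cfd (complement factor D, a serine protease of the same cluster) rose by 1.74 in GMP (limma adjusted p = 0.00016), Plppr3 by 0.76 (adjusted p = 0.00552) and Ptbp1 by 0.56 (adjusted p = 0.0124), and Med16 had 0.23 (adjusted p = 0.211). Next to Mpo, Tspoap1 rose by 3.07 (adjusted p = 9.27e-06), and Mks1 by 0.77 (adjusted p = 0.00513), while the related peroxidase gene Lpo had 0.12 (adjusted p = 0.593). Next to Ctsg, the basophil protease gene Mcpt8 rose by 2.82 (adjusted p = 0.00256). Mcpt4, a mast cell protease gene, was well above background on 4 of 6 LSK arrays and on no GMP array, and was at least 1.26-fold lower in GMP (adjusted p = 0.044). Around Ms4a3, Ms4a6d rose by 3.42 (adjusted p = 9.54e-05) and Oosp1 by 2.28 (adjusted p = 0.000534). Oosp2, well above background on 3 of 6 GMP arrays and 1 of 6 LSK arrays, had 2.42 (adjusted p = 8.1e-05). Ms4a2, the beta chain of the IgE receptor, was well above background on 4 of 6 GMP arrays and on no LSK array, and was at least 2.07-fold higher in GMP (adjusted p = 0.00177). Around Prss57, Palm rose by 1.65, Fstl3 by 1.51 and Rnf126 by 0.70, with adjusted p from 4.44e-05 to 0.00436.

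Genes that process, bind or inhibit the granule proteins formed a list of 20, of which 17 were tested: 14 rose in GMP, 0 fell and 3 did not pass (limma), with a median of 1.05 against 0.16 for all genes. Slpi, an inhibitor of elastase and cathepsin G, had the largest named rise (4.62, SE 0.30, adjusted p = 2.79e-05), followed by Cst7, the cystatin F gene (2.52, adjusted p = 0.000224), and the lysosomal hexosaminidase gene Hexa (1.90, adjusted p = 2.79e-05). Chosen for their roles after the values were seen, Ctsc, which activates the proteases, rose by 1.27 (adjusted p = 0.00132), Srgn by 1.05 (adjusted p = 0.00165) and Serpinb1a, an elastase inhibitor, by 0.80 (adjusted p = 0.0106). Lyz2 and Serpinb6a had 0.59 and -0.29 and did not pass.

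In diseased LSK cells 2 of these 17 rose, Slpi (1.75, limma adjusted p = 0.00303) and Cst7 (1.69, adjusted p = 0.00779), and 0 fell, with a median of 0.30 against 0.09 for all genes. Ctsc and Srgn had 0.42 and -0.31 there and did not pass (adjusted p = 0.394 and 0.222). In diseased GMP 5 rose and 0 fell, neither Slpi nor Cst7 among them. They included Ctsb (0.76) and Man2b1 (1.02), which encode lysosomal hydrolases, with Lyz2 (lysozyme, 1.23) and Serpinb6a (1.25), at adjusted p from 0.00846 to 0.0434.

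Among 12 regulators of myeloid and granule gene transcription 6 rose in GMP and 0 fell (limma), with a median of 1.00. Cebpe, which drives the later granule stages, rose by 5.85 (adjusted p = 2.79e-05), Cebpd by 3.26 (adjusted p = 3.22e-05) and Cebpa by 2.00 (adjusted p = 0.000123). In diseased LSK cells 3 rose and 2 fell: Cebpa (1.31, adjusted p = 0.00148), Irf8 (1.52, adjusted p = 0.00779) and Spi1 (1.02, adjusted p = 0.011) were higher, and Per3 (-1.22) and Cebpb (-1.03) lower. Cebpe had 1.83 there and did not pass (adjusted p = 0.0687). In diseased GMP 3 rose, Spi1 (0.93), Cebpb (0.99) and Cebpa (0.49), and 1 fell, Myb (-0.72).

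Of 10 genes for haem synthesis and peroxidase folding, 6 rose in GMP and 0 fell (limma), with a median of 0.64. Alas1, the first enzyme of haem synthesis, rose by 3.60 (adjusted p = 1.83e-05) and the chaperone gene Calr by 1.93 (adjusted p = 0.000877). In diseased LSK cells 3 rose and 0 fell, among them Alas1 (1.30, adjusted p = 0.00813) and the chaperone gene Canx (0.57, adjusted p = 0.0164). In diseased GMP 1 rose, Fech (0.80), and 1 fell, Canx (-0.60).

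Serine protease genes of other lineages did not move as 1 block. Of 9 tested, 3 were higher in GMP (Prss34 by 3.89, Mcpt8 and Cfd) and 2 lower (limma). Of all genes, 25.7% were called higher and 18.9% lower, so these counts are near what all genes gave. Among the lower ones, Gzma, granzyme A, was well above background on 5 of 6 LSK arrays and on no GMP array. It was at least 2.07-fold lower in GMP (limma adjusted p = 0.00668). In diseased LSK cells 1 rose, Prss34, a basophil and mast cell protease gene (3.47, adjusted p = 0.0474), and in diseased GMP 0 of 9 passed (limma), with 0 at an unadjusted p under 0.05.

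Of 6 genes of the Ms4a family tested beside Ms4a3, 3 rose in GMP and 0 fell (limma). In diseased LSK cells 2 rose: Ms4a6c by 1.31 (adjusted p = 0.00735), and Ms4a6d, which was not well above background on any LSK array without disease, by at least 3.00-fold (adjusted p = 0.00753). In diseased GMP 0 rose and 1 fell, Ms4a6b (-1.16). Under Ezh2 loss and under Tet2 knockdown 0 genes of these 5 lists passed (limma), with at most 1 per list at an unadjusted p under 0.05. Markers of the sorted cells moved too (limma). In diseased LSK cells 5 of 8 GMP markers rose, among them Fcgr3 (2.32, adjusted p = 0.00524) and Csf1r (1.35, adjusted p = 0.00236). There 2 of 9 LSK markers fell, Hlf (-1.17, adjusted p = 0.00946) and Mecom (-2.65). In diseased GMP 3 of 9 LSK markers and 2 of 8 GMP markers rose, and 0 of either list fell.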

How the data were processed

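Total RNA from sorted LSK cells and GMPs was labelled with Cy3 and hybridised to one-colour Agilent arrays, 12 arrays of 12 groups. Per the file headers, the deposited processed signal is a background-corrected intensity from Feature Extraction 10.7.1.1, and the median spot and background signals are intensities too. The deposited saturation, outlier, control type and well-above-background columns hold flags, given the unit other. The authors' deposited value table held the same intensity as the scanner files at every spot. Each array's log2 processed signal had the log2 of its 75th percentile over gene spots subtracted, flagged spots were left out and spots of 1 probe were averaged. Of 55681 gene probes, 26762 matched 1 symbol through a RefSeq gene table (GRCm38.p6, used for names; the headers name another build). For each gene the brightest probe on average was used, and a gene was kept if that probe passed the well-above-background flag on 2 or more arrays. The 13708 genes left were fitted in R 4.3.3 with limma 3.58.1 (lmFit, eBayes, two-sided, Benjamini-Hochberg over all genes, threshold 0.05).

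GMP and LSK were compared with condition as a block. Diseased and other arrays were compared in a fit of 4 groups (cell type by disease). Ezh2 loss and Tet2 knockdown were fitted over the 8 arrays without disease with cell type as a term. The diseased against the other double mutants were a contrast in a fit of condition and cell type, as was RAEB against MDS/MPN. The code was tested on simulated data. A fold of a gene not well above background in 1 group is a bound, against the higher of its own level and the lowest level well above background on each array. The members and gene lists were chosen with earlier results of these data known. The number of arrays limits the precision. The genes named were the 6 members, up to 3 genes of each list per direction and comparison with the smallest p, the 5 genes most like the members by each measure, the 2 coding genes on each side of a member, and Tet2 and Ezh2; exceptions are given where they occur. Alternatives, 27 settings, covered background correction, scaling, filters, probe choice, the empirical Bayes setting, the arrays used and the value table.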

Additional observations from a re-analysis of the deposited data

Results flagged for a closer look

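The step between diseased and other arrays differed between the cell types, by the limma test of that difference itself, for 4 members. The value, disease effect in GMP minus disease effect in LSK, was -2.62 for Ms4a3, -2.10 for Ctsg, -2.07 for Elane and -1.11 for Mpo on the log2 scale. Each had a larger step in LSK cells. Of all genes tested, 5.94% were called in this direction. These calls depended on the arrays used. Of 21 alternatives, Elane and Mpo each lost the call in 11, Ms4a3 in 8 and Ctsg in 3. With arrays matched on Xist, 0 members passed (limma). The diseased LSK and GMP arrays were on different slides and differed in Xist and Y-linked transcripts, so these and the cell type cannot be told apart. Each of the 12 labelled groups has 1 array, so no array was tested as an outlier within its group.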

How the results depend on the processing

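The rise of the members in GMP held for 6 of 6 in 23 of 23 alternatives, among them the 8 arrays without disease alone, slide in place of condition and no replicate block. With slide as a block the estimate also rests on those 8 arrays, since each other slide holds 1 cell type. The count over both cell types in disease ran from 4 to 6 in 21 alternatives. In LSK cells it was 5 of 6 in 20 of 22, but 1 without the LSK MDS/MPN array and 1 with arrays matched on Xist, chosen after seeing the data; leaving out each array in turn gave 1 to 5. In GMP it was 0 in 16 of 22, and 1 (Prtn3) with no filter on dim probes, with a filter of at least 6 arrays, with trend and robust empirical Bayes, and without LSK MDS/MPN, LSK RAEB or the GMP double mutant (range 0 to 1). The difference of disease effects gave 4 or 5 of 6 in the settings that changed the processing, 0 to 4 with 1 array left out and 0 matched on Xist, where Prss57 turned to 0.0349. The comparison with the double mutant without disease, Ezh2 loss and Tet2 knockdown gave 0 under every alternative run. Uncalled values changed sign with 1 array left out for Ezh2 loss in Prtn3 (-0.247 to 0.0252), Ctsg (-0.34 to 0.24) and Prss57 (-0.327 to 0.0558), and for Tet2 knockdown in Ctsg (-0.29 to 0.28) and Ms4a3 (-0.21 to 0.39). The causes were not tested. Quantile scaling moved the median of all genes from 0.16 to 0.01 in GMP minus LSK and from 0.15 to 0.05 in diseased GMP. Over all genes the number called ran, with the main number first, 6112 (4486 to 10656) for GMP minus LSK, 2984 (1152 to 6339) for disease, 1314 (71 to 5451) for disease in LSK, 3134 (1412 to 6004) in GMP, 1764 (19 to 6273) for the difference of disease effects, 26 (0 to 78) for Ezh2 loss, 1 (0 to 22) against the double mutant and 0 (0 to 1) for Tet2 knockdown. The share of calls that were higher moved under quantile scaling from 57.7 to 46.3% for GMP minus LSK, from 58.5 to 48.2% in diseased GMP and from 53.9 to 43.2% for the difference of disease effects (66.5% under normexp). No paired analysis by replicate was possible because each group has 1 array; slide as a block for disease was not run, since no slide holds both.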
